A study of Mus musculus with 20 samples.

Results

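The potassium channel genes of the mouse spinal cord were described across 4 groups of mice. They were taken as every gene with a probe set of 1 symbol whose symbol begins with Kcna, Kcnb, Kcnc, Kcnd, Kcnh, Kcnj, Kcnk, Kcnma, Kcnn, Kcnq or Kcnt, except Kcnj10, with the probe set of the highest mean over the 20 arrays standing for each gene. This gave 64 of the 22180 genes measured. Of these, 59 encode pore-forming subunits (26 voltage-gated, 13 inward rectifier, 13 tandem-pore-domain and 7 calcium- or sodium-activated), 3 encode the cytoplasmic beta subunits Kcnab1, Kcnab2 and Kcnab3, which the prefix Kcna also takes in, and 2 are non-coding RNAs, Kcnd3os and Kcnq1ot1.

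The mice were C57BL/6J, 6 to 10 weeks old, in a design that crossed genotype with treatment, with 5 mice and 5 arrays in each group. Cx30GRko mice (arrays titled Tg) lack the glucocorticoid receptor gene where Cre recombinase was made in cells that express connexin 30, a gap junction protein found mostly in astrocytes, while control mice (arrays titled wt) keep it. Cells in which the Cre was not made, such as most neurons, keep the receptor in both genotypes. Both genotypes were injected into the peritoneum with saline or with 4 mg/kg of the synthetic glucocorticoid dexamethasone (Dex), and the spinal cord was taken after 4 h. In such bulk tissue, fewer cells of a type and less of a transcript per cell cannot be told apart.

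Potassium channels set the resting potential of neurons and glia, end action potentials and clear potassium from the space around active cells. Voltage-gated channels open on depolarisation, inward rectifiers pass current best near rest, tandem-pore-domain channels carry leak current, and calcium- or sodium-activated channels couple ion entry to a brake on firing. Most of these genes are best known from neurons in the cord, whereas Kcnj10 and Kcnj16 are the classical astrocyte subunits. Glucocorticoids act on ion channels both through transcription and through kinases such as Sgk1 and Sgk3, which regulate the number of channels at the membrane.

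Values are deposited log2 signals, 1 per probe set and array, and their precision is limited by the number of arrays. They had been centred within a set of 12 arrays (replicates 1 to 3 of every group) and a set of 8 arrays (replicates 4 and 5), which the labels do not mention. Within each set the mean of every probe set was the same, so differences are given over all arrays and, as a pair of values, first in replicates 1 to 3 and then in replicates 4 and 5. The tests measure the spread between arrays. The arrays of Cx30GRko Dex replicates 4 and 5 stood apart, with SDs over all probe sets of 1.95 and 1.81 against 1.66 to 1.71 in the other arrays of their set, and results that rest on them are given with and without them. Dex changed 24 of 22180 genes as a mean over both genotypes. Among genes that answer to the receptor, Cdkn1a had a difference of 1.80 ± 0.20 (standard error; 1.29 and 2.56 by array set; adjusted p = 0.000194), Sgk3 of 1.22 ± 0.14 (1.28 and 1.12; adjusted p = 0.000194) and Sgk1 of 1.01 ± 0.14 (1.10 and 0.87; adjusted p = 0.00188), each higher in 10 of 10 Dex arrays, while Fkbp5 had 0.69 ± 0.18 (1.18 and -0.05; adjusted p = 0.306). The effect differed between the array sets for Cdkn1a (adjusted p = 0.0253) and Fkbp5 (adjusted p = 0.0213). All 10 neuron markers and all 10 astrocyte markers had a probe set, with lowest log2 signals of 3.75 and 3.91 in any array, and none of the 3 erythrocyte markers had one.

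Signals of the set lay somewhat higher than those of genes in general. The median log2 signal was 5.40 over the 64 genes and 4.68 over all genes, and 38 of the 64 (59.4%) lay at or above the median of all genes. Signals of different probe sets do not rank the genes by abundance, so levels are compared only within a gene. The spread within a group was like that of other genes, with a median residual SD of 0.337 against 0.327, and it was larger in replicates 4 and 5 for 53 of the 64 (82.8%, against 77.2% of all genes), at a median of 0.391 against 0.218 in replicates 1 to 3. Kcnk15 (0.767), Kcnn3 (0.689) and Kcnq3 (0.582) had the largest residual SDs, and Kcnj15 (0.166), Kcna7 (0.168) and Kcnab1 (0.175) the smallest.

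No potassium channel gene passed the adjusted threshold in any of the 6 group comparisons. In control mice, Dex gave 0 called genes of 64 (0.0135% of all genes were called), and 6 had an unadjusted p under 0.05, which is 9.38% against 4.5% of all genes. In Cx30GRko mice, Dex gave 0 called (background 0.00902%) and 7 at an unadjusted p under 0.05, or 10.9% against 8.5%. For the mean Dex effect over both genotypes 0 were called (background 0.108%) and 6 had an unadjusted p under 0.05, or 9.38% against 7.47%. The shares for Cx30GRko mice and for the mean effect lay within 3 percentage points of those of all genes, and the share in control mice was the one farthest above its background.

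The comparisons between genotypes were alike. The interaction of genotype and Dex gave 0 called (background 0%) and 3 at an unadjusted p under 0.05 (4.69% against 4.91%). Cx30GRko against control gave 0 called under saline (background 0%), with 3 at an unadjusted p under 0.05 (4.69% against 4.44%), and 0 called under Dex (background 0%), with 7 at an unadjusted p under 0.05 (10.9% against 9.78%). The lowest adjusted p of any member was 0.874, 0.572, 0.374, 0.924, 0.966 and 0.502 in these 6 comparisons, in the order given, and over the alternative settings it reached no lower than 0.209, 0.196, 0.111, 0.584, 0.712 and 0.130. Without Cx30GRko Dex replicates 4 and 5 there were again 0 called, and the members at an unadjusted p under 0.05 numbered 8, 0, 5, 4, 5 and 1, or 12.5%, 0%, 7.81%, 6.25%, 7.81% and 1.56%, against 6.51%, 2.98%, 4.66%, 3.58%, 6.98% and 2.05% of all genes in the same fit.

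The differences were small. The median over the 64 genes was 0.05 for Dex in control mice, 0.09 for Dex in Cx30GRko mice and 0.05 for the mean of both, against 0.01, 0.02 and 0.02 over all genes, and the mean Dex effect lay above 0 for 38 of 64. Here and for the classes and families below, counts of estimates above 0 have no share of all genes beside them. They describe the members only. The median interaction was 0.08, but -0.03 in replicates 1 to 3 and 0.15 in replicates 4 and 5. The median of Cx30GRko against control was -0.02 under saline and 0.01 under Dex, the latter -0.05 in replicates 1 to 3 and 0.09 in replicates 4 and 5, so that the medians of the interaction and of genotype under Dex changed sign between the array sets. For the mean Dex effect the 95% interval lay within a 2-fold change in both directions for 62 of the 64 genes, with a median of 0.307 from the estimate to either end, and reached past it for Kcnab3 and Kcnn3. The interval lay within 2-fold for 58 genes for Dex in control mice, 55 for Dex in Cx30GRko mice, 59 for genotype under saline, 52 for genotype under Dex and 40 for the interaction.

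**Figure D1:**
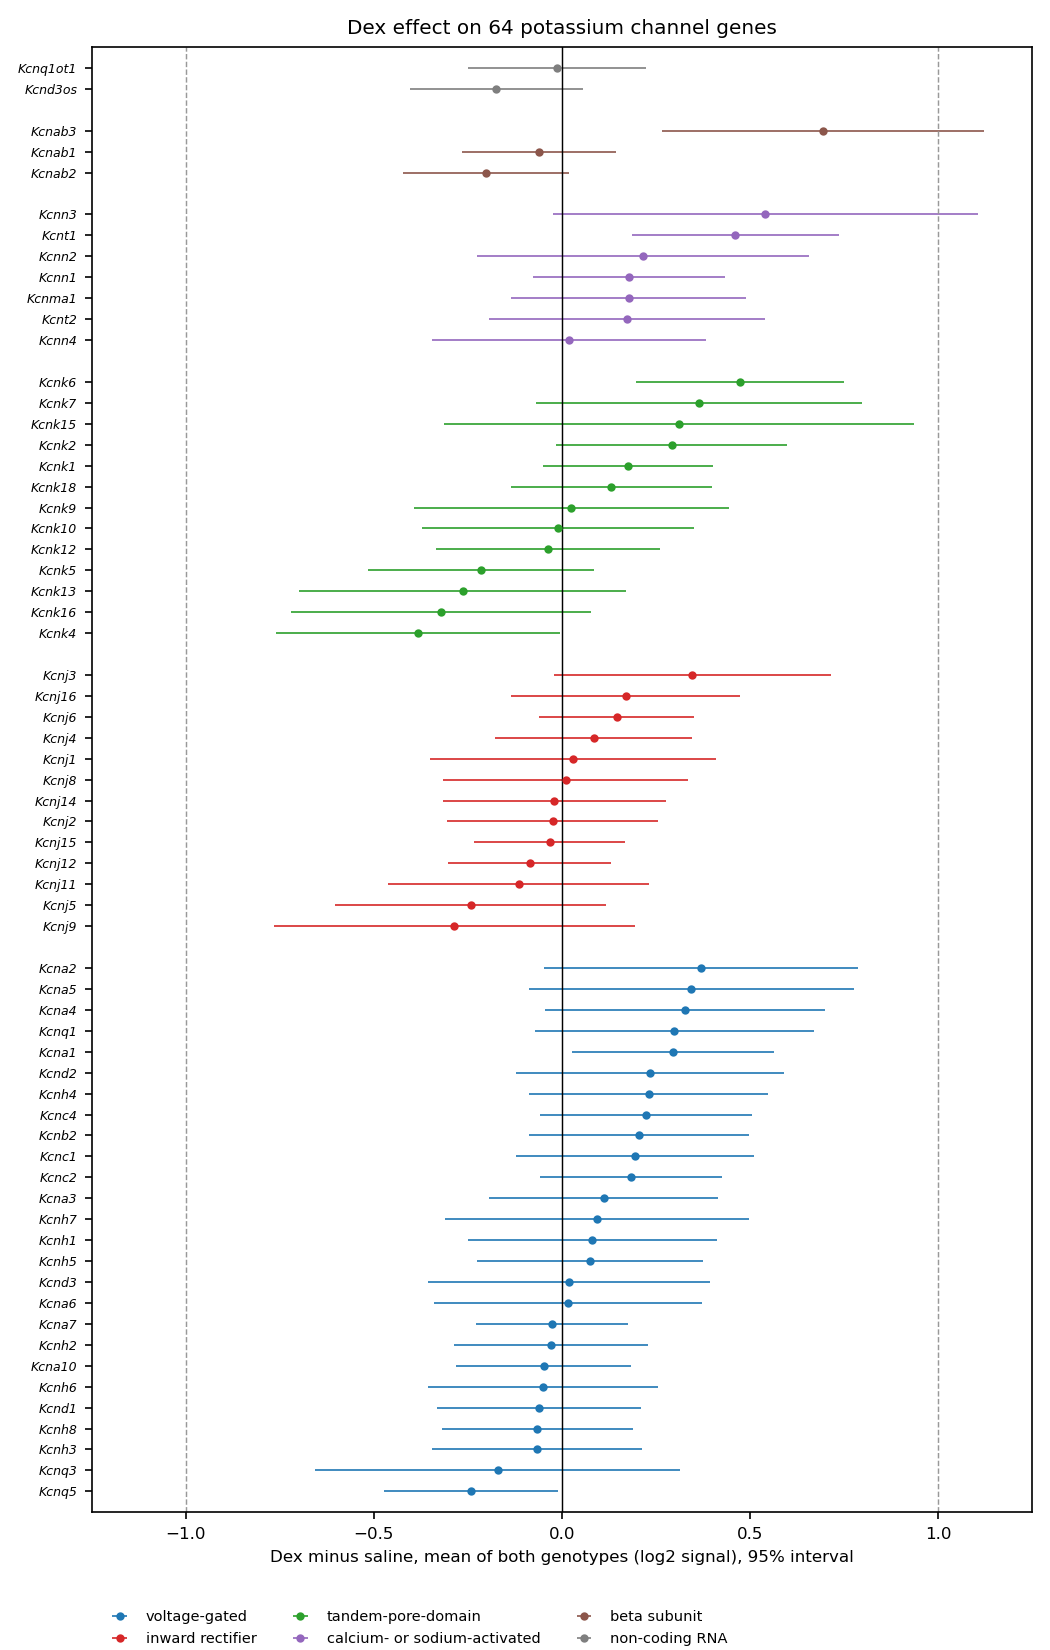
Mean Dex effect over both genotypes for the 64 genes, as log2 differences (points) with 95% intervals (lines), grouped by channel class. The estimates run from -0.38 (Kcnk4) to 0.69 (Kcnab3), and the intervals of Kcnab3 and Kcnn3 reach past a 2-fold change.

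Few genes had groups that did not overlap. Kcnt1 was higher with Dex in control mice in all 5 arrays against all 5 (1 of 64; 1.24% of all genes had such groups). Kcnq5 was lower with Dex in Cx30GRko mice (1 of 64; 1.53% of all genes). Under saline no gene had groups apart by genotype (0 of 64; 0.938%), and under Dex Kcnd3 was lower in Cx30GRko mice (1 of 64; 1.28%), with 6.50 at the highest against 6.51 as the lowest control value. With all 10 Dex and all 10 saline arrays, compared within each array set, 0 of 64 were apart (0.0766% of all genes). These counts do not exceed 1 gene in any comparison.

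Among voltage-gated channels, the Dex estimates of the Kcna family had 1 sign in Cx30GRko mice and not in control mice. Its members form low-threshold channels of axons and terminals that limit repetitive firing. In Cx30GRko mice the Dex difference lay above 0 for 8 of 8 (median 0.32; 0.18 in replicates 1 to 3 and 0.60 in replicates 4 and 5), 1 of them at an unadjusted p under 0.05 and 0 called. Of all genes, 8.5% had such a p and 0.00902% were called. In control mice the Dex difference lay above 0 for 4 of 8 (median -0.01), and the interaction was above 0 for 8 of 8, with 0 at an unadjusted p under 0.05 (4.91% of all genes). For the neuron markers the Dex difference lay above 0 for 10 of 10 in control mice (median 0.20) and for 7 of 10 in Cx30GRko mice (median 0.24). Their interaction was above 0 for 7 of 10 (median 0.08). The mean log2 deviation of the 10 neuron markers ran from -0.51 to 0.04 in control saline arrays, -0.05 to 0.12 in control Dex arrays, -0.22 to 0.14 in Cx30GRko saline arrays and -0.11 to 0.83 in Cx30GRko Dex arrays, and its part in the result was not tested.

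Kcna1, an axonal delayed rectifier subunit, had log2 signals of 8.25, 8.22, 8.24, 7.59 and 7.54 under saline and 8.19, 8.15, 8.27, 7.97 and 8.46 under Dex in control mice (replicates 1 to 5 in order, here and below). In Cx30GRko mice it had 8.05, 8.08, 8.16, 8.02 and 8.41 under saline and 8.44, 8.18, 8.20, 8.75 and 8.88 under Dex. The groups overlapped in both genotypes, and 8 of 10 Dex arrays lay above the saline mean of their own genotype and array set. The mean Dex effect was 0.30 ± 0.13 (0.07 and 0.63 by array set; 0.15 without Cx30GRko Dex replicates 4 and 5), with an adjusted p of 0.651 (0.392 to 1.000 over the alternatives). Kcna2, its usual partner in the axon membrane, had a mean Dex effect of 0.37 ± 0.20 (0.07 and 0.82), not called. Its highest value, 9.26 in Cx30GRko Dex replicate 4, stood far from the 7.34 to 7.64 of the other arrays of that group.

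Kcna6, a subunit of the same delayed rectifiers, had the lowest p of the set for genotype under saline. Its saline values were 5.90, 5.80, 6.18, 6.07 and 6.42 in control mice and 5.85, 5.74, 5.90, 5.21 and 4.63 in Cx30GRko mice. The groups overlapped, although all 5 Cx30GRko arrays lay below the control mean of their own array set. The difference was -0.61 ± 0.24 (-0.13 and -1.32 by array set) and was not called, at an adjusted p of 0.966 (0.712 to 0.999 over the alternatives). The other probe set of Kcna6, at percentile 55.6 of signal, had -0.12 ± 0.32 (0.37 and -0.85). Kcna3, a voltage-gated channel of neurons and lymphocytes, had a difference of 0.56 ± 0.21 by genotype under Dex (0.27 and 0.99; 0.28 without Cx30GRko Dex replicates 4 and 5), higher than the control mean of its set in 5 of 5 Cx30GRko arrays, at an adjusted p of 0.502 (0.323 to 1.000). Kcna7 had an interaction of 0.35 ± 0.19 (0.46 and 0.17), not called. Kcna5 and Kcna10 had mean Dex effects of 0.34 and -0.05.

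The Kcnc genes encode the high-threshold channels of fast-spiking neurons. All 3 had a Dex difference above 0 in control mice, and all 3 an interaction below 0, with 0 called in either comparison (0.0135% and 0% of all genes). Kcnc4 had the lowest p of the set in both. In control mice it read 6.55, 6.35, 6.67, 5.95 and 5.89 under saline and 6.62, 6.74, 6.47, 7.08 and 7.36 under Dex. Saline replicates 4 and 5 were the lowest and Dex replicates 4 and 5 the highest of these 10 arrays, and the groups overlapped in replicates 1 to 3. The difference was 0.57 ± 0.19 (0.09 and 1.30 by array set; adjusted p = 0.874, 0.563 to 1.000 over the alternatives). In Cx30GRko mice Kcnc4 read 6.32, 6.62, 6.52, 6.94 and 6.54 under saline and 6.44, 6.75, 6.50, 6.28 and 6.34 under Dex, so that the interaction was -0.69 ± 0.27 (-0.01 and -1.72; adjusted p = 0.924, 0.584 to 0.999). Both values came almost wholly from replicates 4 and 5. Kcnc1 had Dex differences of 0.36 ± 0.22 in control and 0.03 ± 0.22 in Cx30GRko mice, and Kcnc2 of 0.26 ± 0.16 and 0.11 ± 0.16.

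The Kcnd channels carry the fast-inactivating current of dendrites and cell bodies. Kcnd3 read 6.85, 6.51, 6.57, 6.67 and 7.33 in control and 6.10, 6.49, 6.50, 5.63 and 5.55 in Cx30GRko mice under Dex. The highest Cx30GRko value lay just below the lowest control value, and replicates 4 and 5 of the Cx30GRko group were the lowest. The difference was -0.73 ± 0.25 (-0.28 and -1.42 by array set; -0.32 without replicates 4 and 5 of the Cx30GRko Dex group), not called, at an adjusted p of 0.502 (0.131 to 1.000 over the alternatives), and under saline it was -0.20 ± 0.25. Kcnd2 had a genotype difference under saline of 0.50 ± 0.24 (0.08 and 1.13; adjusted p = 0.966, 0.712 to 0.999), above the control mean of its set in 5 of 5 arrays, and a mean Dex effect of 0.23 ± 0.17. Kcnd1 had -0.38 ± 0.18 by genotype under saline (-0.08 and -0.84), below that mean in 5 of 5 arrays and not called. The 3 genes thus did not share a sign.

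The Kcnh genes encode the ether-a-go-go family, whose erg branch (Kcnh2, Kcnh6 and Kcnh7) slows repetitive firing. For Cx30GRko against control under Dex, 7 of 8 lay above 0 (median 0.18), 1 of them at an unadjusted p under 0.05 and 0 called. Of all genes, 9.78% had such a p and 0% were called. Kcnh7 read 6.32, 6.24, 6.08, 5.72 and 5.36 in control and 6.19, 6.66, 6.35, 7.46 and 6.94 in Cx30GRko mice under Dex. The difference of 0.78 ± 0.28 (0.19 and 1.66 by array set; 0.35 without Cx30GRko Dex replicates 4 and 5; adjusted p = 0.502, 0.207 to 1.000 over the alternatives) was largest in replicates 4 and 5, and the groups overlapped. Kcnh8, of the elk branch, had -0.40 ± 0.17 by genotype under saline (-0.21 and -0.68) and an interaction of 0.51 ± 0.24 (0.23 and 0.93), neither called. Kcnh2 had a mean Dex effect of -0.03 ± 0.12, and the other 5 members ran from -0.07 to 0.23.

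Kcnq3 and Kcnq5 form the M-current, a slow current that steadies neurons near threshold. Kcnq5 read 6.71, 6.67, 6.67, 6.92 and 6.91 under saline and 6.45, 6.59, 6.32, 5.76 and 6.56 under Dex in Cx30GRko mice. All 5 Dex arrays lay below all 5 saline arrays, at 6.59 against 6.67 for the nearest pair. The difference was -0.44 ± 0.16 (-0.23 and -0.75 by array set; -0.28 without Dex replicates 4 and 5; adjusted p = 0.572, 0.396 to 1.000 over the alternatives). In control mice it was -0.05 ± 0.16, and the mean over both genotypes was -0.24 ± 0.11 (adjusted p = 0.661, 0.545 to 1.000). The other probe set of Kcnq5, at percentile 9.92 of signal, had -0.05 ± 0.13 in Cx30GRko mice. Kcnq3 had a mean Dex effect of -0.17 ± 0.23 with the third largest spread of the set, and a saline value of 7.80 in Cx30GRko replicate 5 against 6.38 to 6.77 in the other 4 arrays. Kcnq1, the subunit of heart and epithelia, had 0.30 ± 0.18. Over all 26 voltage-gated genes the Dex difference in Cx30GRko mice lay above 0 for 20 (median 0.12; 0.02 in replicates 1 to 3 and 0.43 in replicates 4 and 5).

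The inward rectifiers had estimates on both sides of 0. The mean Dex effect lay above 0 for 6 of 13, with a median of -0.02, and 0 were called or had an unadjusted p under 0.05 (0.108% and 7.47% of all genes). The G-protein-gated subunits, which open on inhibitory transmitter release, had mean Dex effects of 0.35 ± 0.18 (Kcnj3), -0.24 ± 0.17 (Kcnj5), 0.15 ± 0.10 (Kcnj6) and -0.29 ± 0.23 (Kcnj9). The ATP-sensitive subunits Kcnj8, of pericytes and smooth muscle, and Kcnj11 had 0.01 ± 0.16 and -0.12 ± 0.17. Kcnj2, Kcnj12 and Kcnj14, classical strong rectifiers, had -0.02, -0.09 and -0.02. Kcnj16, the astrocyte partner of Kcnj10, had 0.17 ± 0.15, and the transport-type Kcnj1 and Kcnj15 had 0.03 and -0.03.

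Kcnj4, a strong rectifier of neurons, had the lowest p for the interaction among the inward rectifiers. It read 2.91, 2.75, 3.06, 2.90 and 2.85 under saline and 2.79, 2.95, 3.56, 3.75 and 3.38 under Dex in control mice. In Cx30GRko mice it read 3.46, 2.95, 3.35, 3.11 and 2.91 under saline and 3.13, 3.06, 2.84, 2.67 and 2.96 under Dex. Of the Dex arrays, 4 of 5 lay above the saline mean of their set in control mice and 0 of 5 in Cx30GRko mice. The interaction was -0.62 ± 0.25 (-0.44 and -0.89 by array set; adjusted p = 0.924, 0.680 to 0.998 over the alternatives), and the Dex difference in control mice was 0.39 ± 0.18, neither called. The probe set is dim, at percentile 13.8 of signal. Kcnj10, left out of the set by its rule and described here for reference, had a mean Dex effect of 0.33 ± 0.14 (0.04 and 0.76) and in Cx30GRko mice 0.56 ± 0.20 (0.03 and 1.34), neither called; its Dex effect in Cx30GRko mice differed between the array sets by 1.31 ± 0.28 (adjusted p = 0.0152).

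Among the tandem-pore-domain channels, which carry background leak current, the mean Dex effect lay above 0 for 7 of 13 (median 0.02), with 0 called and 2 at an unadjusted p under 0.05. Of all genes, 0.108% were called and 7.47% had such a p. Kcnk6, a weak inward-rectifying leak channel known from vessels and endosomes, had the lowest adjusted p of the 64 genes for the mean Dex effect. It read 4.57, 4.60, 4.76, 4.00 and 4.18 under saline and 4.55, 4.92, 4.95, 5.02 and 4.48 under Dex in control mice. In Cx30GRko mice it read 4.09, 4.23, 4.48, 4.36 and 4.23 under saline and 4.38, 4.73, 4.78, 5.07 and 5.35 under Dex. In Cx30GRko mice only Dex replicate 1 lay below the highest saline value, and 9 of 10 Dex arrays lay above the saline mean of their genotype and set. The mean Dex effect was 0.47 ± 0.13 (1.39-fold; 0.26 and 0.79 by array set; 0.32 without Cx30GRko Dex replicates 4 and 5), with an adjusted p of 0.374 (0.186 to 0.936 over the alternatives), and in Cx30GRko mice it was 0.58 ± 0.19 (adjusted p = 0.572, 0.270 to 1.000). Its relatives Kcnk1 and Kcnk7 had 0.18 ± 0.11 and 0.36 ± 0.21.

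Kcnk4, one of the mechanosensitive and lipid-gated channels, had the most negative mean Dex effect of the set, -0.38 ± 0.18. In control mice it read 5.52, 5.82, 5.58, 6.12 and 6.79 under saline and 5.70, 5.16, 5.74, 4.66 and 5.06 under Dex. Saline replicates 4 and 5 were the highest and Dex replicates 4 and 5 the lowest, and replicates 1 to 3 overlapped. The difference of -0.70 ± 0.26 was -0.11 and -1.60 by array set (adjusted p = 0.984, 0.660 to 1.000 over the alternatives), and the interaction was 0.64 ± 0.36 (adjusted p = 0.924, 0.675 to 0.999). Kcnk2 and Kcnk10, of the same branch, had mean Dex effects of 0.29 ± 0.15, nearly equal in both array sets (0.30 and 0.28), and -0.01 ± 0.17.

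Kcnk13, a leak channel of microglia, had a Dex difference of -0.63 ± 0.29 in control mice, lower in 5 of 5 arrays and not called (adjusted p = 1.000, 0.651 to 1.000 over the alternatives), and 0.10 ± 0.29 in Cx30GRko mice. The score of the 6 microglia markers ran from -0.07 to 0.21 in control saline and -0.29 to 0.18 in control Dex arrays, with lowest log2 signal 3.40 for any of them, and its part was not tested. Kcnk18, a calcineurin-regulated channel of sensory neurons, had 0.35 ± 0.18 by genotype under saline, not called. The acid-sensitive Kcnk9 had a mean Dex effect of 0.02 ± 0.20 and Kcnk15 one of 0.31 ± 0.30, and the alkaline-activated Kcnk5 and Kcnk16 had -0.22 and -0.32. Kcnk12 had -0.04.

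The calcium- or sodium-activated channels all had mean Dex estimates on one side. All but Kcnn4 lay at or above the median signal. Genes at or above it were in general higher in Cx30GRko Dex replicates 4 and 5 (median deviations of 0.20 and 0.12), and the part of this in the count was not tested. The mean Dex effect lay above 0 for 7 of 7 (median 0.18; 0.12 in replicates 1 to 3 and 0.36 in replicates 4 and 5), with 0 called (0.108% of all genes) and 1 at an unadjusted p under 0.05 (7.47% of all genes). That gene was Kcnt1, a sodium-activated channel of the slow afterhyperpolarisation. It read 6.35, 6.43, 6.16, 6.48 and 6.35 under saline and 6.78, 7.04, 6.65, 7.18 and 6.75 under Dex in control mice. In Cx30GRko mice it read 6.61, 6.44, 6.66, 6.68 and 5.55 under saline and 6.54, 6.83, 6.72, 6.93 and 6.89 under Dex. The control groups did not overlap (6.48 at the highest under saline, 6.65 at the lowest under Dex). In Cx30GRko mice saline replicate 5 was far below the others, and 1 Dex array (6.54) lay within the range of the saline arrays.

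The mean Dex effect of Kcnt1 was 0.46 ± 0.13 (1.38-fold; 0.32 and 0.67 by array set; 0.40 without Cx30GRko Dex replicates 4 and 5), with 9 of 10 Dex arrays above the saline mean of their genotype and set. The adjusted p was 0.395 (0.111 to 0.887 over the alternatives). In control mice it was 0.52 ± 0.19 (0.51 and 0.55), nearly the same in both array sets, at an adjusted p of 0.958 (0.209 to 1.000). Kcnt2, the other sodium-activated gene, had a mean Dex effect of 0.17 ± 0.18.

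**Figure D2:**
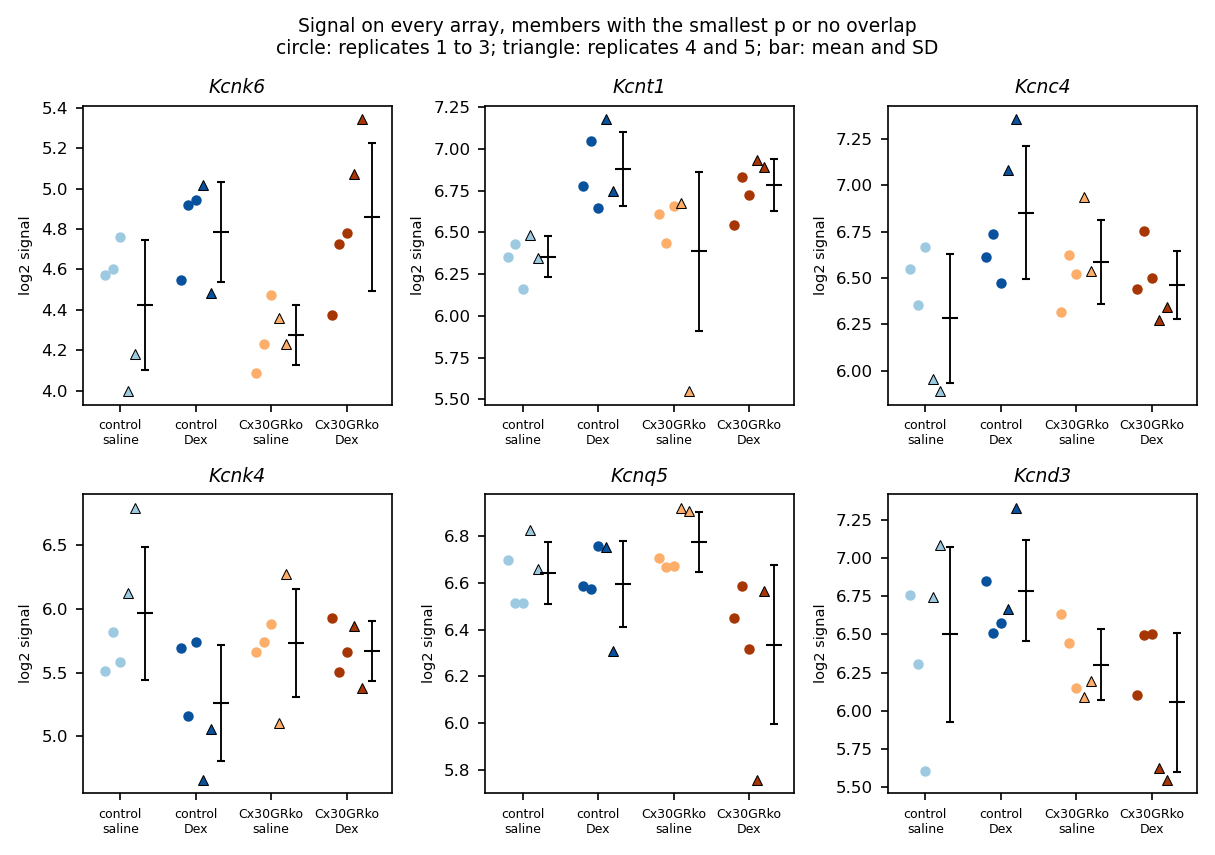
Log2 signal of Kcnk6, Kcnt1, Kcnc4, Kcnk4, Kcnq5 and Kcnd3 in every array by group (circles, replicates 1 to 3; triangles, replicates 4 and 5; bars, mean and SD of 5 arrays). The Dex arrays of Kcnt1 lie above all saline arrays in control mice, and Kcnc4 and Kcnk4 are farthest apart in control replicates 4 and 5.

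Kcnma1, the large-conductance channel opened by calcium and voltage, had a mean Dex effect of 0.18 ± 0.15. The small-conductance genes Kcnn1, Kcnn2 and Kcnn3, which shape the afterhyperpolarisation, had 0.18 ± 0.12, 0.22 ± 0.21 and 0.54 ± 0.27. Kcnn3 read 7.06, 6.57, 6.80, 4.66 and 6.75 under saline and 6.81, 6.68, 7.08, 8.55 and 6.64 under Dex in Cx30GRko mice, where replicate 4 was the lowest under saline and the highest under Dex, and its interval was wide (-0.02 to 1.11). Kcnn4, the intermediate-conductance channel of microglia and blood cells, read 5.05, 4.76, 4.44, 5.43 and 5.50 in control and 4.57, 4.53, 4.82, 3.31 and 4.30 in Cx30GRko mice under Dex. The genotype difference was -0.73 ± 0.25 (-0.11 and -1.66 by array set; -0.28 without Cx30GRko Dex replicates 4 and 5; adjusted p = 0.502, 0.130 to 1.000 over the alternatives), the lowest p of the set in that comparison. Replicates 4 and 5 were the highest control values and the lowest Cx30GRko values, and replicates 1 to 3 overlapped. The non-coding RNAs had mean Dex effects of -0.17 ± 0.11 (Kcnd3os) and -0.01 ± 0.11 (Kcnq1ot1).

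The Dex effect itself differed between the array sets for some genes, and this was the comparison in which members were called. As a mean over both genotypes, the effect in replicates 4 and 5 minus that in replicates 1 to 3 was called for 1 of 64, Kcnab3 (2.16% of all genes were called), with 17 at an unadjusted p under 0.05, or 26.6% against 15.8% of all genes. In Cx30GRko mice it was called for 4 of 64, Kcnab3, Kcna4, Kcnj3 and Kcnb2 (background 4.51%), with 14 at an unadjusted p under 0.05, or 21.9% against 19.2%. The comparison in Cx30GRko mice was chosen because an earlier look at these data had found Cx30GRko Dex replicates 4 and 5 apart. Its p-values are therefore not those of a comparison planned beforehand. Neither count of called members is far from its background. All 4 genes had a larger Dex effect in replicates 4 and 5.

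Kcnab3, a beta subunit of Kcna channels, read 6.32, 6.19, 6.36, 5.81 and 5.83 under saline and 6.37, 6.20, 6.40, 7.65 and 7.75 under Dex in Cx30GRko mice. Saline replicates 4 and 5 were lower and Dex replicates 4 and 5 higher than the rest. In control mice it read 6.22, 6.06, 6.02, 5.50 and 5.21 under saline and 6.24, 6.50, 6.71, 5.89 and 6.75 under Dex, with 4 of 5 Dex arrays above all saline arrays. The mean Dex effect was 0.69 ± 0.21 (0.21 and 1.42 by array set; 0.33 without Cx30GRko Dex replicates 4 and 5), the largest of the set, with an adjusted p of 0.442 (0.273 to 0.941 over the alternatives). The difference between the sets was 1.21 ± 0.22 over both genotypes (adjusted p = 0.0110, 0.00151 to 0.0616) and 1.84 ± 0.31 in Cx30GRko mice (adjusted p = 0.00553, 0.00144 to 0.0436). Kcnab1 and Kcnab2, the other beta subunits, had mean Dex effects of -0.06 ± 0.10 and -0.20 ± 0.11.

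Kcna4, the fast-inactivating subunit of axon terminals, read 7.14, 6.96, 7.05, 6.82 and 6.41 under saline and 7.23, 7.01, 6.92, 8.47 and 7.90 under Dex in Cx30GRko mice. Its Dex effect there was 0.63 ± 0.25 (0.01 and 1.57), so that the sets differed by 1.57 ± 0.33 (adjusted p = 0.0134, 0.00339 to 0.0945 over the alternatives). Under Dex its difference by genotype was 0.61 ± 0.25 (0.04 and 1.45), not called. In replicates 1 to 3 both differences were close to 0.

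Kcnj3, a G-protein-gated rectifier of neurons, read 6.50, 6.38, 6.40, 5.88 and 6.00 under saline and 6.43, 6.36, 6.24, 7.93 and 6.96 under Dex in Cx30GRko mice. The Dex effect of 0.55 ± 0.25 was -0.08 and 1.50 by array set, with opposite signs, and the sets differed by 1.59 ± 0.34 (adjusted p = 0.0139, 0.000551 to 0.0498). Kcnb2, a delayed rectifier of neuronal cell bodies, read 6.12, 5.71, 5.97, 5.47 and 5.50 under saline and 5.50, 5.55, 5.74, 6.47 and 6.28 under Dex. Its Dex effect was -0.34 and 0.89 by array set, and the difference was 1.23 ± 0.29 (adjusted p = 0.0243, 0.0136 to 0.197). Kcna6 had a difference of 1.14 ± 0.39 and was not called (adjusted p = 0.104, 0.0158 to 0.396). Over both genotypes Kcnh4, Kcna4, Kcnb2 and Kcnj3 followed Kcnab3 at 0.92, 0.85, 0.74 and 0.84, with adjusted p from 0.0581 to 0.0737 (0.00398 to 0.344 over their alternatives).

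**Figure D3:**
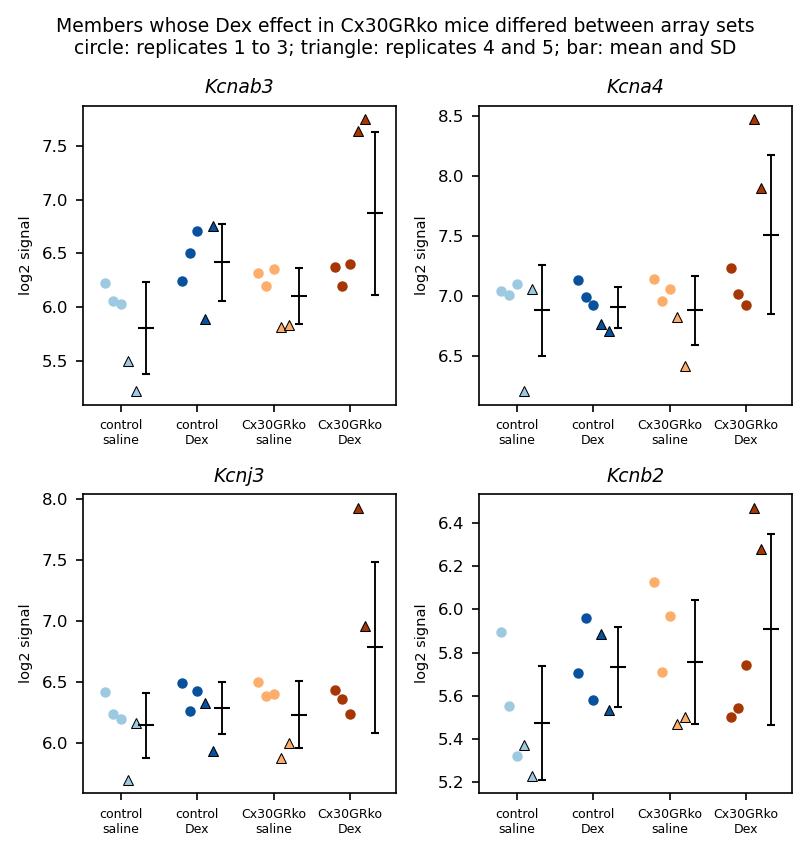
Log2 signal of Kcnab3, Kcna4, Kcnj3 and Kcnb2 in every array by group (circles, replicates 1 to 3; triangles, replicates 4 and 5; bars, mean and SD of 5 arrays). In Cx30GRko mice replicates 4 and 5 are higher under Dex than under saline for all 4 genes.

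These calls rested on few arrays. In control mice alone the same difference between the sets was 0.58 for Kcnab3, 0.14 for Kcna4, 0.09 for Kcnj3 and 0.25 for Kcnb2, and 0 members were called (0.122% of all genes were), with 9 at an unadjusted p under 0.05 (14.1%, against 8.79% of all genes). That comparison was also chosen after seeing the data. With Cx30GRko Dex replicates 4 and 5 left out of the fit, 0 members were called there too (0.37% of all genes) and 11 had an unadjusted p under 0.05 (17.2% against 10.8%). The share of all genes called changed with the arrays too. Without Cx30GRko Dex replicate 5, 14 members were called in Cx30GRko mice in place of 4 (all genes 10.7% in place of 4.51%), and 9 over both genotypes in place of 1 (all genes 7.1% in place of 2.16%). Over both genotypes 5 were called without Cx30GRko saline replicate 4 (all genes 2.69%). That number was 3 without control Dex replicate 5 (3.57%), without Cx30GRko Dex replicate 4 (2.07%), and without either control saline replicate 4 (3.28%) or 5 (3.85%). It was 2 without control saline replicate 3 (1.14%) and without Cx30GRko saline replicate 5 (3.89%). In Cx30GRko mice, 6 were called without Cx30GRko saline replicate 5 (all genes 7.13%).

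Kcnab3 and Kcnj3 were called in Cx30GRko mice whichever 1 array was left out. Kcna4 was not called without Cx30GRko Dex replicate 4 (adjusted p = 0.0551). Kcnb2 was not called without Cx30GRko saline replicate 1 (0.0621), 3 (0.0539) or 4 (0.0524), or without Cx30GRko Dex replicate 1 (0.0555), 2 (0.0563) or 4 (0.0698), all adjusted p-values. The neuron, astrocyte and oligodendrocyte scores were highest in the same arrays. The neuron score was 0.83 and 0.37 in Cx30GRko Dex replicates 4 and 5, the astrocyte score 0.75 and 0.42 and the oligodendrocyte score 0.69 and 0.27, against at most 0.14, 0.08 and 0.16 in the other 3 groups. The skeletal muscle score was lowest in the same arrays, at -0.96 and -0.54, against -0.41 or higher in the other 3 groups. Other lists differed between these arrays. The meningeal fibroblast score was 1.38 in replicate 4 and -0.12 in replicate 5, and the oligodendrocyte precursor score 0.30 and -0.29. The microglia score was -0.16 and 0.19, and the motor neuron score -0.25 and 0.35. For these 4 genes the Dex effect in Cx30GRko mice was larger in replicates 4 and 5. So it was for 10 of 10 neuron markers (median difference 0.70, 3 called) and 9 of 10 astrocyte markers (0.73, 1 called). It was larger for 0 of 4 skeletal muscle markers (-1.13, 1 called). Of all genes 4.51% were called, and of those at or above the median signal 11.9%. The part of cell makeup or of the arrays in the result was not tested.

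**Figure D4:**
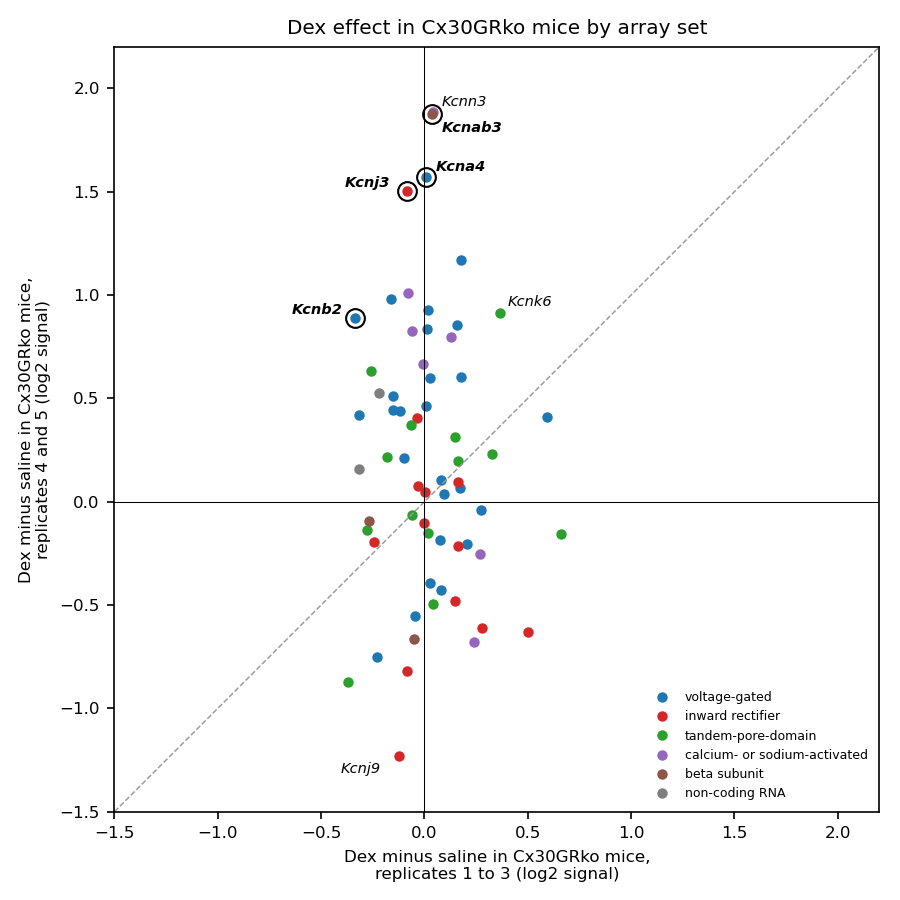
Dex effect in Cx30GRko mice for each of the 64 genes, as log2 differences in replicates 1 to 3 (horizontal axis) and in replicates 4 and 5 (vertical axis). Kcnab3 (0.03 and 1.88), Kcna4 (0.01 and 1.57), Kcnj3 (-0.08 and 1.50) and Kcnb2 (-0.34 and 0.89) lie above the dashed line of equal effect and are ringed.

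The brighter members as a whole were also higher in those arrays. The median deviation of the 38 members at or above the median signal was 0.33 in Cx30GRko Dex replicate 4 and 0.09 in replicate 5, against 0.20 and 0.12 for all 11090 genes at or above that signal. In the other 18 arrays it ran from -0.15 to 0.07. For the 26 dimmer members it was -0.17 and 0.02 in the same pair of arrays.

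**Figure D5:**
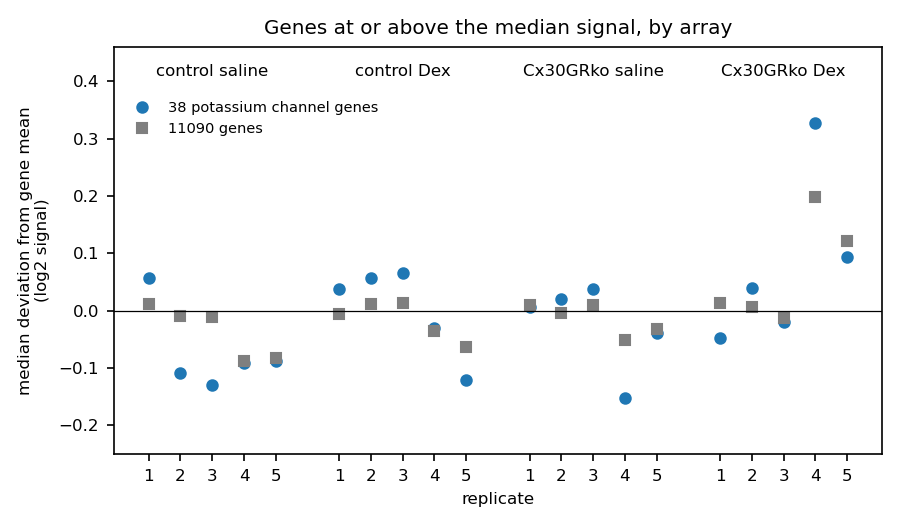
Median log2 deviation from each gene's mean over all arrays, for the 38 potassium channel genes at or above the median signal (circles) and all 11090 genes at or above it (squares), in each of the 20 arrays by group and replicate. The highest circle, 0.33, is Cx30GRko Dex replicate 4, where the square is at 0.20.

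Of the 64 genes, 6 had more than 1 probe set of their own symbol, and the probe sets disagreed for several. Over 20 arrays, which share groups and array sets, Pearson's r between the probe sets was 0.516 for Kcna4, 0.0501 for Kcnq5, 0.00527 for Kcna6, -0.151 for Kcnj3, -0.325 for Kcnma1 and -0.402 for Kcnab3. The other probe set of Kcnab3 had a mean Dex effect of -0.46 ± 0.19, opposite in sign, and a difference between the sets in Cx30GRko mice of -0.76 ± 0.57. That of Kcnj3 had -0.09 ± 0.19 for Dex in Cx30GRko mice and 0.16 ± 0.31 between the sets, and that of Kcna4 had 0.47 ± 0.23 and 0.97 ± 0.43. The calls of Kcnab3, Kcnj3 and Kcna4 between the array sets were made on the brighter probe set, and none of their other probe sets was called.

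Promoter windows were examined because the receptor, where it acts as a dimer, binds an element of AGAACA, any 3 bases and TGTTCT, which reads the same on both strands. Windows of 300 bases, from 250 before to 50 after a transcript start (RefSeq, GRCm38.p6), were given for 51 of the 64 genes, 68 windows in all, and Kcnab3, Kcnb2, Kcnk6 and Kcnt1 had none. The 6-base site (each side of the element; AGAACA or TGTTCT, either strand) stood in 12 of 68 windows (17.6%), against 19.0% of all 32851 windows, and the full element in 0 of 68, against 3 of all windows (0.00913%). The 8 genes with a 6-base site in any window were Kcnab1, Kcnc2, Kcnj1, Kcnj5, Kcnj6, Kcnk2, Kcnk10 and Kcnk18. The median of their mean Dex effects was 0.08, with 5 above 0, against 0.02 and 25 above 0 among the 43 genes with windows and no 6-base site. A match describes these letters in these windows and nothing more. Shown are the windows of Kcna4 (chr2:107290339-107290638, plus strand) and Kcnj3 (chr2:55435720-55436019, plus strand), which were called between the array sets and hold no 6-base site. Also shown is a window of Kcnk2 (chr1:189402224-189402523, minus strand), whose Dex effect was alike in both array sets and not called. Its 6-base site, in capitals, starts 241 bases before the transcript start, and the other Kcnk2 windows hold none. A link between the site and the Dex effect was not tested.
Kcna4: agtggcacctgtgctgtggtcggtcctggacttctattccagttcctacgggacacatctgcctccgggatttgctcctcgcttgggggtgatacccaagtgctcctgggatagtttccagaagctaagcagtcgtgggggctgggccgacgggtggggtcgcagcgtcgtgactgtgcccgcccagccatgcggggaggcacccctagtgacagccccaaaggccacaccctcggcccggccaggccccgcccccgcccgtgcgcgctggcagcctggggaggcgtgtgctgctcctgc
Kcnj3: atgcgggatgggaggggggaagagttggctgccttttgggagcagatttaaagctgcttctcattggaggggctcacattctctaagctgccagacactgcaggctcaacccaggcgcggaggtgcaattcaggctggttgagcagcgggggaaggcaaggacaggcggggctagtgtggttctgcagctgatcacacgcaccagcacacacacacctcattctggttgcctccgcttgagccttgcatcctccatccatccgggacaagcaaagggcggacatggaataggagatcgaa
Kcnk2: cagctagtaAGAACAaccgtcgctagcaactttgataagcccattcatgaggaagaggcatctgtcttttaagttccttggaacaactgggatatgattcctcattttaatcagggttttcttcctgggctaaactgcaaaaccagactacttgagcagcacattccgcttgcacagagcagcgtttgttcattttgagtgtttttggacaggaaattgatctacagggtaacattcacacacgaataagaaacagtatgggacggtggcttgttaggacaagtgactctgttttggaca

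Channel partners outside the symbol rule were read the same way. Of 35 listed auxiliary, silent and modulatory subunit genes, 34 had a probe set, and 0 were called in any of the 6 group comparisons. For the mean Dex effect 22 of 34 lay above 0 (median 0.06), and 2 had an unadjusted p under 0.05. Of all genes, 7.47% had such a p and 0.108% were called. The 4 with the lowest p were Dpp10, a partner of Kcnd channels, at 0.50 ± 0.20 (0.03 and 1.21 by array set), Kcne2, a small partner of Kcnq and Kcnh channels, at 0.22 ± 0.10, Abcc9, the sulphonylurea receptor of Kcnj8 channels, at 0.25 ± 0.13, and Kcnv2, a silent subunit, at -0.23 ± 0.13, with adjusted p of 0.635 or higher. Between the array sets the Dex effect of 2 of the 34 was called over both genotypes and of 3 in Cx30GRko mice, beside 2.16% and 4.51% of all genes.

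Some channel genes lie side by side on the chromosome. In the gene order of GRCm38.p6, 14 of the 64 formed 8 neighbouring pairs, among them Kcna3, Kcna2 and Kcna10 on chromosome 3 and Kcna5, Kcna1 and Kcna6 on chromosome 6. The mean Dex effects were 0.11, 0.37 and -0.05 in the first cluster and 0.34, 0.30 and 0.02 in the other. The neighbours Kcnj16 and Kcnj2 on chromosome 11 had 0.17 and -0.02, Kcnj6 and Kcnj15 on chromosome 16 had 0.15 and -0.03, Kcnj5 and Kcnj1 on chromosome 9 had -0.24 and 0.03, and Kcnk5 and Kcnk16 on chromosome 14 had -0.22 and -0.32. None of these differences was called.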

How the data were processed

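RNA from 20 mouse spinal cords was measured on Affymetrix arrays that cover whole transcripts, each cord on its own array. The authors deposited log2 probe set values. Per the submitters' processing notes the tool was oligo. Its version, the build, the annotation and the method of normalization are not given in the sources used here. No further normalization was applied: every array had a mean of 4.64, and for every probe set the means of replicates 1 to 3 and of replicates 4 and 5 differed by at most 4.54e-09. Dim probe sets were kept. Of 41345 probe sets, 23521 had 1 gene symbol, 1814 several and 16010 none.

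Differences were tested with limma 3.58.1 (R 4.3.3; two-sided moderated tests) on all 20 arrays with the array set as a fixed block (15 residual and 5.77 prior degrees of freedom). Differences between the array sets came from 8 means (12 residual degrees of freedom). Benjamini-Hochberg adjustment ran over all 22180 genes, and genes with adjusted p under 0.05 were called. Errors of differences are standard errors. Marker scores are mean log2 deviations over a list. Tables and plots used Python 3.11.15 with pandas 2.3.3 and matplotlib 3.10.9. The fit was tested on simulated data. Alternatives were no block, a replicate block, each array set alone, only the groups compared, quantile normalization again, array weights, a filter on dim genes, all probe sets of a symbol, pore-forming genes alone, leaving out each array, and leaving out the pair that stood apart.

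Named genes were the members called in any comparison, the 5 with the smallest p in each comparison, a list of genes chosen by role, the 4 auxiliary subunits with the smallest p for the mean Dex effect, Kcnj10, the receptor target genes Cdkn1a, Sgk1, Sgk3 and Fkbp5, and the genes of largest and smallest spread. The members and lists were chosen with earlier results of these data known. Samples titled Tg were read as Cx30GRko.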

Additional observations from a re-analysis of the deposited data

Results flagged for a closer look

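In 15 of 180 groups of 5 arrays, taken over the 45 potassium channel genes named, 1 array stood far from the other 4: its gap to the nearest of them exceeded 0.71 of the whole range of the group. For 5 values of equal spread, chance alone gives about 1 such group in 20. The spread here was larger in replicates 4 and 5 (median SD 0.391 against 0.218), so that rate does not apply to these groups. Values are log2 signals, with the range of the other 4 arrays. In Cx30GRko Dex replicate 4, Kcna2 was high at 9.26 (others 7.34 to 7.64), Kcnh4 was high at 4.57 (others 3.91 to 4.04) and Kcnn3 was high at 8.55 (others 6.64 to 7.08). In control saline replicate 4, Kcna4 was low at 6.20 (others 7.01 to 7.10). In control Dex replicate 4, Kcna7 was low at 3.57 (others 3.70 to 3.75), Kcnh2 was low at 5.35 (others 5.86 to 6.05) and Kcnn2 was high at 6.98 (others 6.09 to 6.27). In control saline replicate 3, Kcnj11 was low at 5.32 (others 5.55 to 5.57). In Cx30GRko saline replicate 4, Kcnj8 was high at 5.29 (others 3.91 to 4.25) and Kcnn3 was low at 4.66 (others 6.57 to 7.06). In control Dex replicate 5, Kcnk9 was low at 5.82 (others 6.35 to 6.55). In Cx30GRko Dex replicate 3, Kcnn1 was high at 5.10 (others 4.70 to 4.79). In Cx30GRko saline replicate 5, Kcnq3 was high at 7.80 (others 6.38 to 6.77), Kcnt1 was low at 5.55 (others 6.44 to 6.68) and Kcnt2 was low at 4.79 (others 5.59 to 5.81).

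By a limma test of the difference itself, adjusted over all genes, the Dex effect was called different between the array sets for 4 genes. The test took 1 spread per gene over both sets. The residual SD was larger in replicates 4 and 5 for Kcnab3 (0.32 against 0.15), Kcna4 (0.39 against 0.11) and Kcnj3 (0.41 against 0.10). It was smaller there for Kcnb2 (0.15 against 0.21). With array weights, Kcnab3 over both genotypes and Kcna4 and Kcnb2 in Cx30GRko mice were not called. No other probe set of Kcnab3, Kcna4 or Kcnj3 was called. Over both genotypes, Kcnab3 had an effect 1.21 larger on the log2 scale in replicates 4 and 5 than in replicates 1 to 3. In Cx30GRko mice the effect was larger by 1.84 for Kcnab3, 1.57 for Kcna4, 1.59 for Kcnj3 and 1.23 for Kcnb2.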

How the results depend on the processing

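The members called in the 6 group comparisons numbered 0 under every alternative run, among them the array set block left out, each array set alone, array weights, quantile normalization again and leaving out each array in turn. With a replicate block they also numbered 0 in each of the 6. The labels do not say that a replicate number marks mice of 1 litter or day. By the data, 1 of 30 pairs of arrays with the same number had a correlation of deviations over 0.1, while 14 of 20 arrays correlated best with an array of their own number. Replicates 4 and 5 of a group deviate equally and oppositely from their common mean, so their pairs hold the same correlations. No chance level was computed, so these counts do not decide whether arrays of the same number are paired. The Dex difference of Kcnj3 in Cx30GRko mice changed sign, to -0.084 in replicates 1 to 3 alone and to -0.035 with Cx30GRko Dex replicates 4 and 5 left out together. For the Dex effect between the array sets over both genotypes, 1 member was called (2.16% of all genes), 0 with array weights (0.239%), 4 of 38 among genes at or above the median signal (6.03% of those 11090 genes) and 0 among the pore-forming genes alone (Kcnab3 is a beta subunit; 2.16%), with 1 to 9 when each array was left out in turn. In Cx30GRko mice 4 were called (4.51% of all genes), 2 with quantile normalization again (1.33%), 2 with array weights (0.866%) and 3 to 14 when each array was left out. The cause was not tested. Array weights left Kcnab3 over both genotypes (adjusted p = 0.0616), and Kcna4 (0.0506) and Kcnb2 (0.197) in Cx30GRko mice, above the threshold, as quantile normalization did Kcna4 (0.0945) and Kcnb2 (0.0612). Leaving out 1 array kept the call and direction in 781 of 800 values of named members, lost the call in 7 and gained it in 12. With 5 arrays a group, the 95% interval of a Dex difference in control mice reached a median of 0.434 to either side of the estimate.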
